A study of Homo sapiens with 16 samples.

Results

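The arrays of 30 and 33 h in the HER2 inhibitor were compared with those of 24 and 27 h, to see which of the gene expression changes that are in place from 36 h on had begun before then. These are 4 of the 16 arrays of the series, picked by their labelled treatment time, with 2 arrays a side. The cells were MCF10A, a nontransformed human mammary epithelial cell line, treated from 0 h with CP724,714 at 1 µM. CP724,714 is a small molecule inhibitor of the HER2 tyrosine kinase. All cultures grew in serum-free medium that held insulin, epidermal growth factor (EGF) and hydrocortisone, and they received the inhibitor some days after plating, short of full confluence. RNA came from parallel plates, with 1 array for each time point and no second array of any time. The arrays of 12 to 21 h and of 36 to 45 h, 4 each, served as the earlier and later reference. No series without inhibitor was analysed here, so inhibitor, time in culture and plate cannot be told apart.

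HER2 has no ligand of its own and signals as a partner of EGFR and ERBB3. Through these pairs it feeds the ERK and the PI3K/AKT pathways. AKT holds the FOXO transcription factors in the cytoplasm, and when AKT activity falls they enter the nucleus and raise genes of fasting metabolism, growth arrest and receptor synthesis, ERBB3 among them. ERK and AKT also drive the D-type cyclins and E2F, and with them the genes of DNA replication and, later in the cycle, of mitosis.

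Of the 12 basal mammary markers, 9 were detected on all 4 arrays, with KRT5 at 15.06 to 15.25 and S100A2 at 14.54 to 14.68 on the log2 intensity scale. The basal keratin KRT14 was detected on none of the 4. Of the 6 luminal markers, KRT8, KRT18, KRT19 and GATA3 were detected on all 4 and the hormone receptors ESR1 and PGR on none. COL1A1, COL1A2, COL3A1 and LUM of the fibroblast list, VWF and CDH5 of the endothelial list and CD3D of the blood list were also detected on none. PECAM1 (7.15 to 7.44) and KDR of the 4 endothelial markers and CD14 and CD68 (9.63 to 9.98) of the 5 blood markers were detected on all 4 arrays. The summed intensity of the basal markers was 95500 and 93700 at 24 and 27 h and 88300 and 87900 at 30 and 33 h, and that of the luminal markers was 30300 to 35000 over the 4 arrays, and the part of either in the results was not tested. The 4 arrays detected 51.6 to 52.9% of all rows of the table. Neighbouring arrays among them correlated at 0.9951 to 0.9957 across probes.

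Changes called before 36 h were few. Of 10959 probes tested, 12 were called higher at 30-33 h than at 24-27 h (0.109%) and 2 were called lower (0.0182%), by limma with a Benjamini-Hochberg adjusted p under 0.05. At an unadjusted p under 0.05 there were 1189. The window of the same length from 12 to 21 h, 18-21 h against 12-15 h, gave 2 called higher and 8 lower. There 1215 probes had an unadjusted p under 0.05. A change of at least 1.7-fold without overlap of the 4 arrays was seen for 21 probes upward (0.192%) and 9 downward (0.0821%), which is a count with no test. It includes probes that were not above background on either array of the lower side. Some of these had bounds under 1.7-fold: TNFSF10 (1.46), SEPP1 (1.49) and HIST2H2BE (1.55) upward and SLCO2A1 (1.47) downward. Others, such as MGC17330 (1.81), had bounds above it. With detection on all 4 arrays required, the counts were 13 and 6. From one array to the next, 37 probes moved by at least 1.7-fold from 24 to 27 h, 37 from 27 to 30 h and 47 from 30 to 33 h. The steps between neighbouring arrays from 12 to 24 h counted 88, 131, 118 and 105. From 33 to 36 h the count was 711. The p-values measure the spread between neighbouring time points, not between repeats of 1 condition. The 14 calls rest on the outer arrays: without the 24 h array 0 probes were called by limma (545 at an unadjusted p under 0.05), without the 33 h array 0 were (445), without the 27 h array 22 and without the 30 h array 51. With the 4 arrays fitted alone all 14 were called among 33 higher and 44 lower, and 0 were with all 16 arrays in the fit (791 at an unadjusted p under 0.05) or without the intensity trend (1095).

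**Figure D1:**
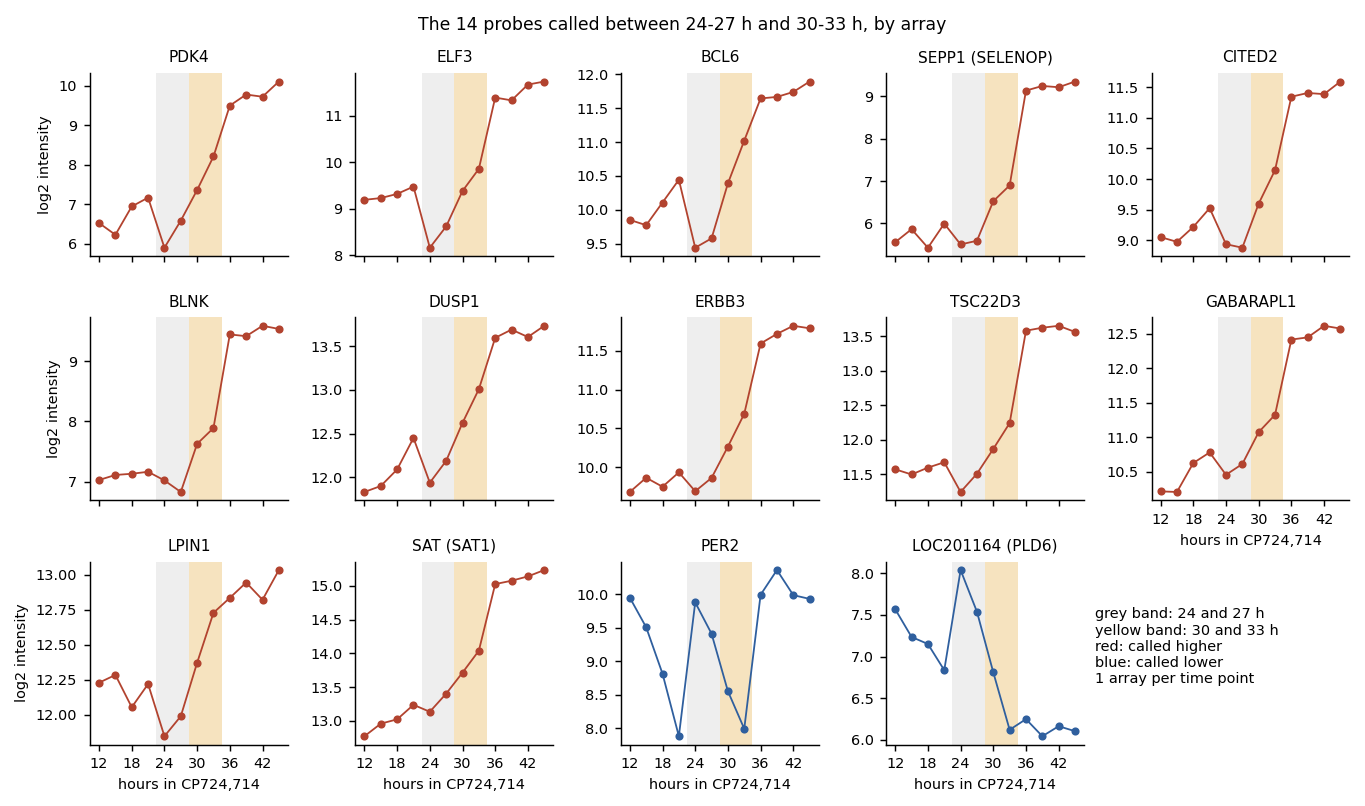
Log2 intensity of the 14 called probes on each array from 12 to 45 h (hours in CP724,714 on the x axis, 1 point per array); the grey band marks 24 and 27 h and the yellow band 30 and 33 h. The 12 red probes rose within the bands and rose further at 36 h, whereas PER2 returned to 9.99 at 36 h. LOC201164 stayed at 6.04 to 6.25 from 36 h on, near the lowest detected intensity.

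The largest rise was that of PDK4, which encodes the kinase that shuts off pyruvate dehydrogenase in fasting. PDK4 measured 5.90 at 24 h and 6.59 at 27 h, then 7.36 at 30 h and 8.21 at 33 h. Each array was above the one before it, and at 36 to 45 h PDK4 lay at 9.77 ± 0.25 (SD, n = 4). The difference was 1.54 ± 0.26 log2 (SE, adjusted p = 0.0238), a 2.91-fold rise, although only 1 of the 2 arrays of 24-27 h was above background. BCL6, a transcriptional repressor and known FOXO target, measured 9.44 and 9.58 at 24 and 27 h and 10.39 and 11.02 at 30 and 33 h. It rose by 1.20 ± 0.15 log2 (SE, adjusted p = 0.00333). Its level at 36 to 45 h was 11.74 ± 0.11 (SD, n = 4), and the mean of 30 and 33 h had covered 53.7% of the distance to it. CITED2, a regulator that binds the coactivators CBP and p300, measured 8.94, 8.88, 9.60 and 10.14 on the 4 arrays. Its rise was 0.96 ± 0.15 log2 (SE, adjusted p = 0.0147). ERBB3, the receptor that pairs with HER2 and binds PI3K, measured 9.69, 9.86, 10.26 and 10.69. It rose by 0.70 ± 0.12 log2 (SE, adjusted p = 0.0275), and a second, dimmer ERBB3 probe differed by 0.24 log2 with overlapping arrays.

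These 4 genes were the called members of the list of FOXO targets and insulin signalling genes, of which 26 of 29 were tested. Of all probes tested, 0.109% were called higher. In 16 of the 26, both arrays of 30-33 h lay above both of 24-27 h, against 22.7% of all probes tested, and in 2, INSR and GADD45A, both lay below (22.9% of all probes). The median difference of the list was 0.25 log2 against -0.0038 for all probes, and it stayed between 0.15 and 0.28 under the other scalings and without any 1 of the 4 arrays. Of the members just short of the threshold, TNFSF10, which encodes the death ligand TRAIL, measured 5.38 and 5.59 at 24 and 27 h, 6.25 at 30 h and 7.11 at 33 h (adjusted p = 0.0504). It was not above background at 24-27 h, so the rise was at least 1.46-fold, and its test used those values below background. Only the arrays of 30 and 33 h took TNFSF10 past the detection filter. TXNIP, an inhibitor of glucose uptake, measured 11.84, 12.37, 12.64 and 13.24 (difference 0.83 ± 0.16 log2, SE, adjusted p = 0.0504). FOXO4, printed on the array as MLLT7, differed by 0.61 log2 (adjusted p = 0.0815) and FOXO1 by 0.24 (adjusted p = 0.44). The insulin receptor substrates split, with IRS1 at 0.32 and IRS2 at -0.13 log2, neither past the test. FBXO32, the atrogin-1 ubiquitin ligase, gave 2 probes that went opposite ways. The probe with the larger late rise (3.69 log2) measured 8.24, 8.45, 8.83 and 9.51 (difference 0.82, adjusted p = 0.0681), and the other, with a late rise of 1.35 log2, measured 10.20, 9.80, 9.38 and 9.14 (difference -0.74, adjusted p = 0.0681). FBXO32 was not on the list.

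ELF3, an ETS factor of epithelial differentiation, gave the smallest p. It measured 8.16 and 8.62 at 24 and 27 h and 9.38 and 9.86 at 30 and 33 h, a rise of 1.23 ± 0.15 log2 (SE, adjusted p = 0.00333). SEPP1, now named SELENOP, encodes the secreted selenium carrier selenoprotein P. It was not above background at 24 h (5.51) or 27 h (5.59). It was detected at 30 h (6.53) and 33 h (6.90), a rise of at least 1.49-fold. Only these later arrays took SEPP1 past the detection filter. Its limma test (adjusted p = 0.0275) used the values below background at 24 and 27 h. BLNK, an adaptor best known from B-cell receptor signalling, measured 7.02, 6.83, 7.63 and 7.89 and rose by 0.83 ± 0.15 log2 (SE). LPIN1, a phosphatidate phosphatase and transcriptional coactivator, measured 11.85, 11.99, 12.37 and 12.73, and it had covered 63.8% of the distance to its level at 36-45 h, the largest share of the 12. SAT, now SAT1, the rate-limiting acetylase of polyamine breakdown, measured 13.14, 13.40, 13.71 and 14.04 and rose by 0.61 ± 0.11 log2 (SE). GABARAPL1, an ATG8 protein of the autophagosome, measured 10.46, 10.61, 11.07 and 11.32 and rose by 0.66 ± 0.09 log2 (SE, adjusted p = 0.00809). In all of these the arrays of 30-33 h lay above those of 24-27 h.

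DUSP1 and TSC22D3 are induced by glucocorticoids. Hydrocortisone was in the medium of every culture, and its part in these changes was not tested. DUSP1, a phosphatase of the MAP kinases, measured 11.94, 12.19, 12.62 and 13.01 and rose by 0.75 ± 0.12 log2 (SE, adjusted p = 0.0238). TSC22D3, the glucocorticoid-induced leucine zipper, measured 11.25, 11.51, 11.87 and 12.24 and rose by 0.68 ± 0.11 log2 (SE, adjusted p = 0.0172). PDK4 is on this list as well, so 3 of the 20 tested members were called higher, against 0.109% of all probes. On both arrays 12 of the 20 lay above and 3 below, against 22.7% and 22.9% of all probes. The list's median was 0.22 log2, between 0.15 and 0.29 under the other scalings and leave-outs. KLF9 differed by 0.52 (adjusted p = 0.107), ERRFI1, the feedback inhibitor of EGFR, by 0.43 and ZBTB16 by 0.46 log2. FKBP5 and SGK1, widely used reporter genes of the glucocorticoid receptor, differed by 0.26 and 0.10 log2, and ANGPTL4 differed by -0.51.

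PER2, a repressor arm of the circadian clock, showed the largest decrease. It measured 9.88 at 24 h, 9.41 at 27 h, 8.55 at 30 h and 7.99 at 33 h, each array below the one before, a fall of 1.37 log2 (SE 0.25, adjusted p = 0.0353). The decrease did not last: PER2 was back at 9.99 at 36 h, and its late difference, 36-45 h minus 12-21 h, was 1.03 ± 0.31 log2 (SE, adjusted p = 0.0117), in the other direction. Among the other clock genes, ARNTL (BMAL1), the activator that PER2 opposes, measured 8.01, 8.58, 8.98 and 8.86 (difference 0.63, adjusted p = 0.164). BHLHB3 (BHLHE41), a repressor that BMAL1 activates, differed by 0.73 (adjusted p = 0.102), while PER1, CRY1 and CRY2 differed by -0.31, -0.41 and -0.55 log2. PER2 was the only one of 13 clock genes tested to be called, with 4 of the 13 above (30.8%, against 22.7% of all probes) and 6 below (46.2%, against 22.9%) on both arrays. The second called decrease was LOC201164, now PLD6, a phospholipase D family protein of the mitochondrial surface. It measured 8.04, 7.54, 6.81 and 6.12, a fall of 1.32 log2 (SE 0.23, adjusted p = 0.0275), and it did last, at 6.14 ± 0.09 (SD, n = 4) from 36 to 45 h. These late values lay near the lowest detected intensity, 6.07 to 6.10, and 3 of the 4 arrays were above background. A further fall could not have been seen there.

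Mitotic genes leaned downward as a group before 36 h without any single one passing the test. Of 45 tested, 31 had both arrays of 30-33 h below both of 24-27 h against 22.9% of all probes, and 1, PTTG1, had both above. None was called by limma, 17 were lower and 0 higher at an unadjusted p under 0.05, and 7 were called lower when the 4 arrays were fitted alone. Over all 10959 probes, 1189 passed an unadjusted p under 0.05 in either direction, and 44 were called lower with the 4 arrays alone. The list's median was -0.29 log2, between -0.36 and -0.14 under the other scalings and leave-outs, and smallest without the 33 h array. UBE2C, the ubiquitin-conjugating enzyme of the anaphase-promoting complex, came closest to the threshold. In bulk RNA, fewer dividing cells and less of these transcripts per cell cannot be told apart. The UBE2C probe of middle brightness measured 9.10, 8.85, 8.28 and 8.06 (difference -0.81 ± 0.15, SE, adjusted p = 0.0503), and the brightest probe measured 14.51, 14.40, 14.05 and 13.71 (difference -0.57, adjusted p = 0.184). AURKB, the kinase of the chromosomal passenger complex, differed by -0.70, and CDCA3, a trigger of mitotic entry, by -0.60. SPC25 of the kinetochore and CDK1 differed by -0.52 and -0.44 log2.

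For DNA replication 24 of 35 tested genes lay below (68.6%, against 22.9% of all probes) and 2 above on both arrays, with a median of -0.18 log2 (-0.22 to -0.14 under the alternatives). None was called by limma or with the 4 arrays alone, and 4 were lower at an unadjusted p under 0.05. Of all 10959 probes, 1189 passed that p in either direction. LIG1, the ligase of Okazaki fragments, differed by -0.48 and GMNN, the licensing inhibitor geminin, by -0.38. The core replication helicase genes MCM2 and MCM5 differed by -0.16 and -0.04 log2, and all 4 arrays of MCM2 lay between 9.67 and 10.01. From 33 to 36 h the median step was -0.91 log2 for replication genes and -0.57 for mitotic genes. The immediate-early factor FOSL1, an ERK output, measured 10.32, 9.91, 9.54 and 9.22 (difference -0.73, adjusted p = 0.0802). Of the 31 tested genes on its list of ERK immediate-early and feedback genes, 7 lay above on both arrays (22.6%, against 22.7% of all probes). On both arrays 12 lay below (38.7%, against 22.9%). The list's median was -0.03 log2 and turned to 0.01 without the 30 h array. DUSP1, which rose, was the called member of that list, and 0.109% of all probes were called higher.

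**Figure D2:**
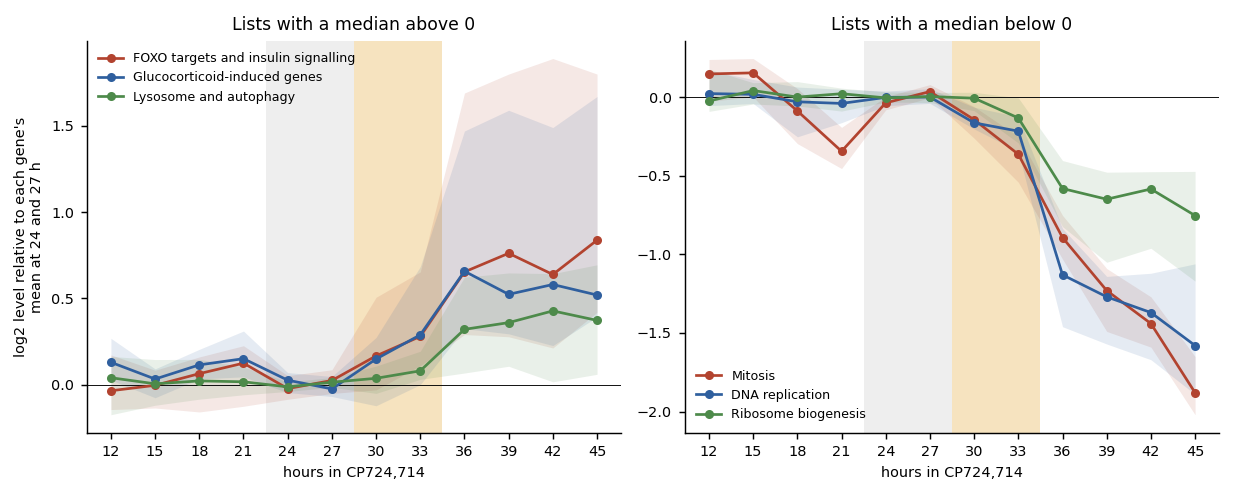
Median log2 level of the tested genes of 6 lists on each array, relative to each gene's own mean at 24 and 27 h (hours on the x axis, shaded ranges are the quartiles over genes, 1 array per time point). The mitosis list was at its lowest before 24 h on the 21 h array, returned by 24 h, was below 0 again at 30 and 33 h and lower still from 36 h on.

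Promoter sequence was read for the called probes and for whole lists, whichever way each member moved. The CHR motif, TTTGAA, through which the DREAM complex holds down genes of the late cell cycle in quiescent cells, was searched on both strands from 250 bases before to 50 after each start in RefSeq (GRCh38.p14). It was found in 26 of 38 promoters of the mitosis list (68.4%) and in 15.2% of all 35116 promoters. The share covers the whole list and was not set against the size of the change. AURKB, the largest decrease of the list, had no CHR in its window. Both CDCA3 and CDCA8, which are mitotic genes with a CHR near the start, are shown here with the motif in capitals.
CDCA3, minus strand, chr12:6851237-6851536: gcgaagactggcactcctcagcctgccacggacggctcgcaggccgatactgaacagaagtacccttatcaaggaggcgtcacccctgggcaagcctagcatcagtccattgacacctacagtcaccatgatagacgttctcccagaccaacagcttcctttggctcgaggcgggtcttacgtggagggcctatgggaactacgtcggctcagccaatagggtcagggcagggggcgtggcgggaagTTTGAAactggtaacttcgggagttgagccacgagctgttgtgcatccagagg
CDCA8, plus strand, chr1:37692266-37692565: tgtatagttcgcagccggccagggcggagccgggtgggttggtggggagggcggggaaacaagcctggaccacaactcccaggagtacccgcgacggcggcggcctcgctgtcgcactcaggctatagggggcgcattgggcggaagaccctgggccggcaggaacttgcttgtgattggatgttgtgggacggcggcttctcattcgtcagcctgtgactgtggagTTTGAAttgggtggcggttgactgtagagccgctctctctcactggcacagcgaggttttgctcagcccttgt
CDCA8 differed by -0.46 log2 between the pairs. Of the 14 called probes, 12 had a promoter in the table. The FOXO core GTAAACA was found in 1 of these 12, against 3.42% of all promoters and 3 of 25 of the FOXO list. The 1 was SELENOP, called as SEPP1, shown with the motif in capitals.
SELENOP, minus strand, chr5:42811843-42812142: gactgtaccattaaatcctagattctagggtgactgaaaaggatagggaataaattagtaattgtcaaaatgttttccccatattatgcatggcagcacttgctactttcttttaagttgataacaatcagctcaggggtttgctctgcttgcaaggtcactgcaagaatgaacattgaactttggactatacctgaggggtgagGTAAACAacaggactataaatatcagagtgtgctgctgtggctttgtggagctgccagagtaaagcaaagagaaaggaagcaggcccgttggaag
DUSP1 held an E-box (CACGTG), a cyclic AMP response element (TGACGTCA) and a CHR, the last on the other strand and overlapping neither of the others.
DUSP1, minus strand, chr5:172771146-172771445: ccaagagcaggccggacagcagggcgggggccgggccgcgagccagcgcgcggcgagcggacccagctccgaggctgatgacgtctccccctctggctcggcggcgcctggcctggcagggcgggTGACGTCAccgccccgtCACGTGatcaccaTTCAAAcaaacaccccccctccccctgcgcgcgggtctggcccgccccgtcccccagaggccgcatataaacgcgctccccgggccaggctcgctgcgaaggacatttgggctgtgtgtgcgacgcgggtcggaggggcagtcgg
The E-box was in 2 of the 12 (DUSP1 and CITED2, 7.26% of all promoters) and the cyclic AMP response element in 2 (DUSP1 and GABARAPL1, 1.85% of all promoters). None of the 4 motifs was in the window of PER2, PDK4, BCL6 or ELF3. A match is a string of letters in a window and was not tested as a site.

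Set against the late change, the early movement was in the same direction but small. Between 36-45 h and 12-21 h, 2817 probes were called higher (25.7%) and 2861 lower (26.1%), and these arrays are not among the 4 compared here. All 12 probes called higher at 30-33 h were also called higher late, and of the 2 called lower, LOC201164 was called lower late. Of the probes called higher late, 38.2% lay above on both arrays of 30-33 h and 12.3% below, with a median difference of 0.08 log2. Of those called lower late, 39.0% lay below and 11.1% above, with a median of -0.07. Among the 5281 probes not called late the shares were 20.6% above and 19.9% below. The share grew with the size of the late change: of the 47 probes higher late by at least 4-fold, 34 lay above on both arrays (72.3%), with a median difference of 0.55 log2, and of the 347 lower late by 2- to 4-fold, 220 lay below (63.4%).

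**Figure D3:**
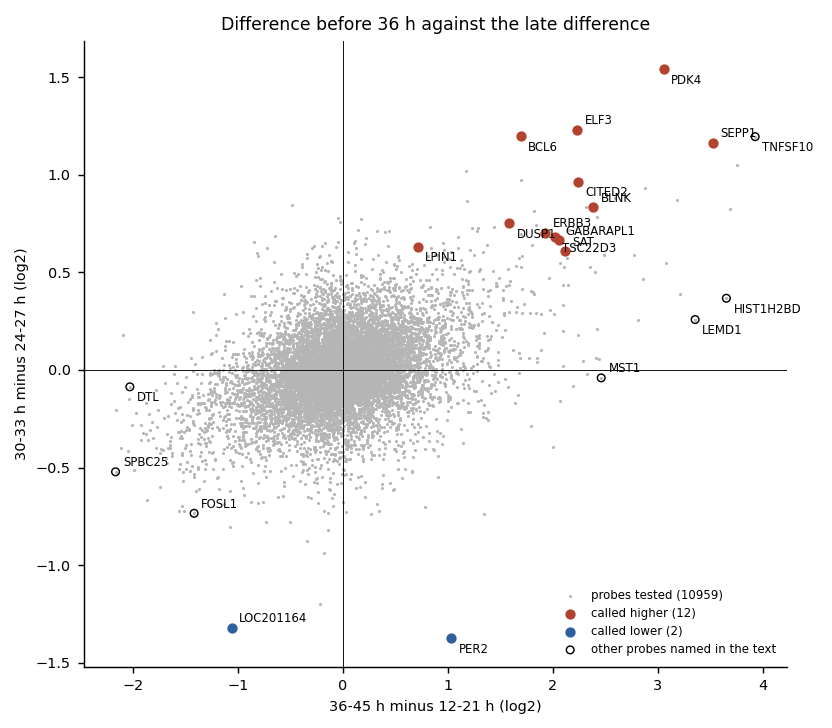
Log2 difference of 30-33 h minus 24-27 h (y axis) against that of 36-45 h minus 12-21 h (x axis) for the 10959 probes tested, with called probes coloured and some probes named in the text circled. PER2 lies low on the right, whereas HIST1H2BD and LEMD1 lie far right but close to 0 on the y axis.

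Some of the largest late rises had hardly started. These genes were taken from the 20 largest late increases and the 20 largest late decreases, a rule added after their values were seen. MST1, macrophage-stimulating protein, measured 6.46, 6.28, 6.37 and 6.29 on the 4 arrays and 8.40 on average at 36 to 45 h. RGC32 (RGCC), a cell cycle regulator of the complement response, measured 11.39, 10.96, 10.95 and 11.52 and 13.34 on average later. The histone gene HIST1H2BD (H2BC5) measured 8.54, 8.56, 8.74 and 9.10 and was 3.65 log2 higher late, with a difference of 0.37 before 36 h (adjusted p = 0.36). LEMD1 differed by 0.26 and the ribonuclease gene ANG by 0.21, with late differences of 3.36 and 2.42 log2. RNASE4 measured 6.57, 6.48, 6.79 and 7.04 on the probe among the 20, then 9.37 at 36 h. Its brighter probe, not among the 20, measured 7.80, 7.51, 7.59 and 7.81, then 9.60. Others among the 20 were well on their way: GBP2 measured 6.74, 6.79, 7.13 and 8.13 and BBOX1, an enzyme of carnitine synthesis, 8.52, 9.11, 9.35 and 10.14, neither past the test. In the 20 largest late increases 16 lay above on both arrays (80%, against 22.7% of all probes). These 20 were drawn from probes that passed the detection filter on the same 4 arrays, which can raise this share. Of these 20, 2 were called higher, SEPP1 and PDK4, against 0.109% of all probes.

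Of the 20 largest late decreases, 6 were on the DNA replication list and 1 on the mitosis list. For 19 of the 20 both arrays of 30-33 h lay below those of 24-27 h (95%, against 22.9% of all probes). Their median was -0.32 log2 over the 20, and none was called by limma. DTL, the substrate receptor that degrades CDT1, measured 10.27, 10.28, 10.20 and 10.17 and then 8.43 at 36 h. Pfs2 (GINS2) of the replicative helicase measured 12.20, 12.10, 12.09 and 11.91 and then 10.56. SLD5 (GINS4) was the exception, at 8.85, 8.66, 8.80 and 9.07 before it dropped to 7.26. RRM2, the small subunit of ribonucleotide reductase, measured 9.18, 9.12, 8.94 and 8.52, and then 7.62 at 36 h.

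Several of the changes resembled a movement seen 12 h earlier. The same difference between 18-21 h and 12-15 h shares no array with the one between 30-33 h and 24-27 h. It had the same sign for 13 of the 14 called probes, LPIN1 being the exception, and for 53.8% of all probes (r = 0.14 across probes, which share arrays and are not independent). SEPP1, at 0.00 log2 there and not above background on any array of 12 to 21 h, counts among the 13. Between 42-45 h and 36-39 h the sign was the same for 14 of the 14 and 53.6% of all probes, and between 6-9 h and 0-3 h for 2 of the 14 and 44.4%. Some of the 14 hardly moved from 36 to 45 h and had overlapping arrays. TSC22D3 measured 13.58, 13.63, 13.65 and 13.57, and LOC201164, near the lowest detected intensity, 6.25, 6.04, 6.16 and 6.11. PER2 measured 9.95, 9.51, 8.81 and 7.88 from 12 to 21 h, a difference of -1.38 log2, and stepped up to 9.88 at 24 h. BCL6 reached 10.44 at 21 h before it stood at 9.44 at 24 h, and ELF3 was at 9.47 at 21 h and 8.16 at 24 h. PDK4 went from 6.53 at 12 h to 7.17 at 21 h and stood at 5.90 at 24 h. LOC201164 fell from 7.57 to 6.84 over 12 to 21 h and stood at 8.04 at 24 h. The mitosis list had a median of -0.35 log2 in this earlier window, with 32 of 45 genes lower on both later arrays. So were 2110 of all 10959 probes. The replication list had a median of -0.10 log2 there, with 16 of 35 genes lower on both later arrays and 2 higher. The FOXO list had a median of 0.12, with 10 of 26 higher and 4 lower. For the glucocorticoid list it was 0.04, with 7 of 20 higher and 3 lower. Higher on both later arrays were 2359 of all probes. SEPP1, BLNK and ERBB3 differed by 0.00, 0.08 and 0.07 log2 there.

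The difference between the windows was itself tested. By limma 0 of 10959 probes were called (0.00%), with 894 at an unadjusted p under 0.05 and 17 called without the 30 h array. For SEPP1 it was 1.16 ± 0.29 log2 (SE) and for ELF3 1.04 ± 0.21, and for PER2 it was 0.01 ± 0.35. SEPP1 was not above background from 12 to 27 h. In a comparison chosen after these values were seen, 30-33 h against 18-21 h, 1 probe was called higher, SAT, by 0.75 log2 (adjusted p = 0.0153), and 2 lower, LCN2 and SERPINA3. Both arrays of 30-33 h lay beyond all 6 arrays of 12 to 27 h for 10 of the 12 probes called higher, the exceptions being ELF3 and BCL6, and for LOC201164 but not PER2. They did so for 15.9% of the probes called higher late (6.72% of all probes) and for 13.2% of those called lower late (5.71% of all probes).

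The median intensity of the 7166 rows detected on no array was 182.3 at 21 h and 169.4, 174.2, 169.2 and 179.3 at 24, 27, 30 and 33 h. The labels name no chip or date, and the part of either in the step between 21 and 24 h was not tested.

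**Figure D4:**
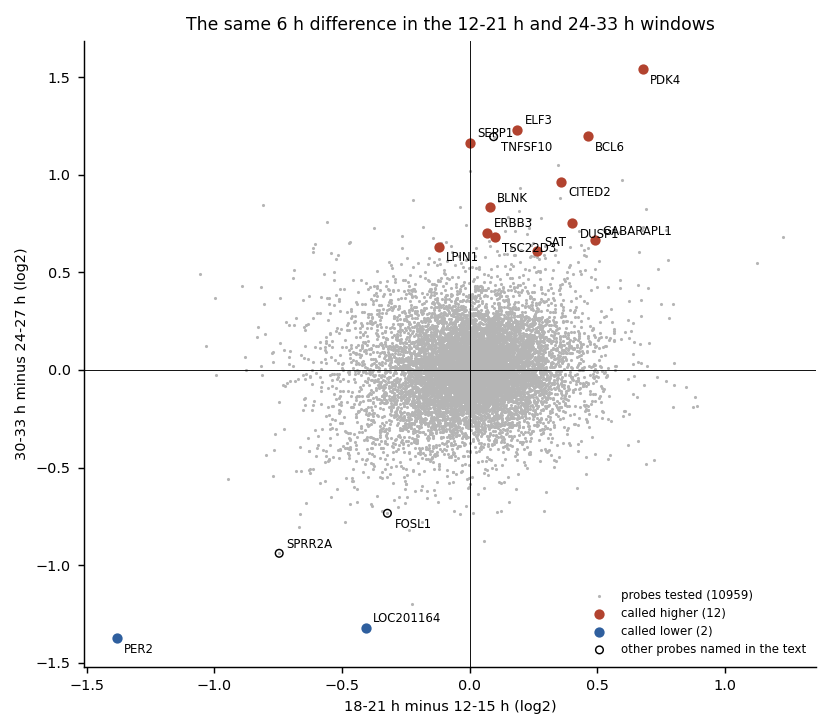
Log2 difference of 30-33 h minus 24-27 h (y axis) against 18-21 h minus 12-15 h (x axis) for the 10959 probes tested, with called probes coloured and TNFSF10, SPRR2A and FOSL1 circled. PER2 has nearly the same value on both axes, SEPP1 and TNFSF10 lie near 0 on the x axis, and LPIN1 lies left of 0. Neither SEPP1 nor TNFSF10 was above background from 12 to 21 h.

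PHGDH and VAMP8, which the study took up for their part in glucose handling and growth, did not pass the test before 36 h. The study took them up from their regulation in MCF10A cells that overexpress HER2, which were not analysed here. It reported that HER2 signalling repressed VAMP8 in those cells and not in MCF10A. PHGDH, which commits a glycolytic intermediate to serine synthesis, measured 12.07, 12.03, 12.21 and 12.20 (difference 0.15 ± 0.07 log2, SE, adjusted p = 0.461). VAMP8, a SNARE protein of vesicle fusion, measured 13.85, 13.82, 13.89 and 13.88 (difference 0.05 ± 0.07, SE, adjusted p = 0.868), and its late difference was 0.47 log2 (adjusted p = 1.11e-05). PDK3, a second kinase of pyruvate dehydrogenase, measured 7.14, 7.30, 7.17 and 7.31 and fell only from 36 h on, to 6.55, whereas PDK4 was already rising. IGFBP6, which binds insulin-like growth factors, measured 10.63, 10.31, 10.07 and 9.86 (difference -0.51, adjusted p = 0.155). NOV, a matricellular protein, differed by -0.55, ASB9 by -0.23 and HMOX1 by -0.28 log2, none past the test.

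Of the remaining lists, those of metabolism shifted little. The counts that follow stand against 22.7% of all probes above and 22.9% below on both arrays, and 26.1% called lower late. By limma 1189 of the 10959 probes had an unadjusted p under 0.05, both directions together. In cholesterol synthesis 10 of 26 tested genes lay above and 1 below on both arrays, with a median of 0.09 log2 (0.04 to 0.13 under the alternatives). SCD, the fatty acid desaturase, was on the list of fatty acid synthesis and differed by 0.36 log2 (adjusted p = 0.103). In the list of serine, one-carbon and ATF4 genes 12 of 28 lay above and 3 below (median 0.07). The shifts of the cholesterol and serine lists were of like size from 12-15 h to 18-21 h, with medians of 0.115 and 0.07 log2. In that window 12 cholesterol genes lay above and 2 below, and 10 serine genes above and 2 below, against 2359 and 2110 of all 10959 probes. No gene of the cholesterol or the serine list was called by limma, and 1 and 5 were higher at an unadjusted p under 0.05. In the lysosome and autophagy list GABARAPL1 was called and 16 of 36 lay above and 3 below, with SQSTM1, the autophagy receptor p62, at 0.41 and a median of 0.06 log2 that turned to -0.0016 under median scaling. Of the proteasome genes 10 of 30 lay above (33.3%) and 2 below, and 22 of the 30 were called lower late. Of the chaperones of the endoplasmic reticulum 9 of 21 lay below and 3 above, with a median of -0.04 log2, none called by limma (6 lower at an unadjusted p under 0.05) and SDF2L1 at -0.34 log2. For ribosome biogenesis 9 of 27 lay below (33.3%) and 2 above, and 24 of the 27 were called lower late. Of the Cip/Kip inhibitors, CDKN1C (p57) measured 7.05, 7.39, 7.77 and 8.61 (difference 0.97, adjusted p = 0.101), while CDKN1A (p21) and CDKN1B (p27) differed by 0.04 and 0.02 log2. Squamous genes went both ways, with SPRR2A of the cornified envelope at 8.86, 8.15, 7.69 and 7.44 (difference -0.94, adjusted p = 0.13) and S100A9 at 0.47 log2.

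**Figure D5:**
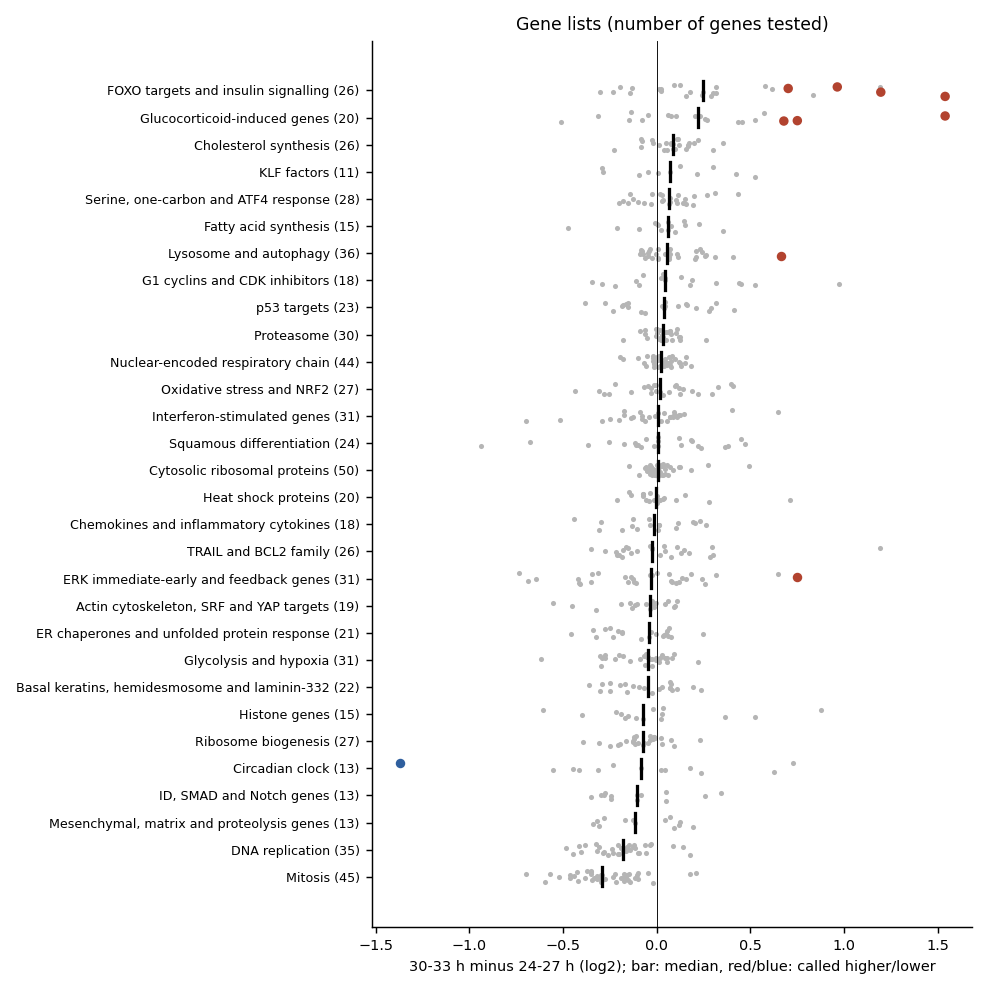
Log2 difference of 30-33 h minus 24-27 h (x axis) for each tested gene of the 30 lists with at least 10 tested genes, 1 point per gene, with the list's median as a black bar and called genes in red or blue. The FOXO and glucocorticoid lists lie highest, at 0.25 and 0.22, and the replication and mitosis lists lowest, at -0.18 and -0.29.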

How the data were processed

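Total RNA of MCF10A cells was hybridized to Illumina human Ref8v2 bead arrays, 1 for each of 16 time points. The authors deposited a linear intensity for each of 20589 rows and array, not normalized, and the authors deposited a detection p-value beside each, measured against negative control beads. The summary software is not given in the sources used here. The methods state quantile normalization. Intensities were corrected with normexp (offset 16; control level inferred from the detection p-values of 19092 single-probe rows), put through quantile normalization over all 16 arrays and taken to log2 (limma 3.58.1 under R 4.3.3). The other 1497 rows combine several probes, and 100 of those were above 8 log2 but failed the detection filter. The filter kept the 10959 probes that 2 or more of the 4 arrays detected, at p-values below 0.05. Of 10411 symbols, 7660 were current, 2156 were updated through RefSeq and 595 kept the file's name. Where genes have several probes, the one with the highest mean over the 16 arrays stands for the gene.

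The comparison was a limma contrast in a fit of 12 arrays, 12 to 45 h, as 6 pairs of consecutive time points with an intensity trend. The late comparison used its own 8 arrays. Adjusted p-values follow Benjamini and Hochberg over all tested probes, with calls under 0.05. Where a probe was not above background on either array of a side, the fold is a bound set by the lowest detected intensity. The number of arrays limits the precision. Genes were named if among the 12 largest changes called in a direction, filled up by p, if called in both comparisons, if among the 3 largest differences of one of 32 gene lists, or if on a short list of genes of prior interest in these data. Further genes of the lists, and those among the 20 largest late changes, were named after their values were seen. The comparison, the lists and the tests were chosen with earlier results of these data known. The fits were tested on simulated data. Python 3.11.15 and matplotlib 3.10.9 drew the figures.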

Additional observations from a re-analysis of the deposited data

Results flagged for a closer look

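Of 66 groups of 4 arrays checked for the 33 genes named for their rank or for prior interest, 5 held an array far from the other 3 when the gap to the nearest array was divided by the group's range, where chance gives about 1 in 20. At 36-45 h the 39 h array stood apart for PER2 (0.857 of the range), the 45 h array for MALL (0.906) and HMOX1 (0.903), and the 36 h array for RNASE4 (0.894). At 12-21 h the 12 h array stood apart for NRP1 (0.851). None of these arrays is among the 4 compared before 36 h.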

How the results depend on the processing

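The 14 calls kept their direction in every alternative, but their number depended on the fit. By limma, 33 higher and 44 lower were called with the 4 arrays alone (33 and 36 of them also late), 83 and 51 with a slope over 24 to 33 h, and 0 and 0 with all 16 arrays (0 and 0 also late), without the intensity trend or with 33 h against 24 to 30 h, where 791, 1095 and 1109 passed an unadjusted p under 0.05. Leaving out each of the 4 arrays gave 0 to 43 higher and 0 to 8 lower, of which 0 to 42 and 0 to 6 were also called late. The lowest counts came without the 24 h or the 33 h array and the highest without the 30 h array. The late-lower probes with both remaining arrays below numbered 1321 to 1752, the differences from the earlier window 0 to 17, and the 1.7-fold changes 10 to 70 higher and 10 to 34 lower. Without a detection filter 25 and 7 were called (25 and 4 also late). Median scaling called 5 lower, and 2 lower were also called late with it, with offset 50 and without background correction. The 1.7-fold counts were 4 and 1 without background correction, 11 and 4 with offset 50, 14 lower with median scaling and 13 higher with detection on all 4 arrays. They were 78 and 53 at 1.5-fold and 7 and 3 at 2-fold. With 0 to 9 h as the late reference 1301 and 1131 were called late, 589 of them above and 473 below on both arrays, and 0 called lower in both. In comparisons added after seeing the data, 1 was called higher against 18-21 h, and 449 and 377 late changes lay beyond all 6 arrays of 12 to 27 h. No paired analysis was possible because the arrays are single time points whose numbers only name them. Median scaling put the median of all probes at -0.03 log2, the largest shift among the scalings tried. With 1 array for each time, a change between time points and a change between plates cannot be told apart.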
